A study of Arabidopsis thaliana with 30 samples.

Results

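Endoplasmic reticulum chaperones and the transcription factor BZIP60 were followed in Arabidopsis thaliana seedlings whose mitochondrial respiration was blocked with antimycin A, an inhibitor of complex III. The group holds 10 genes chosen by name: BZIP60, the calreticulins CRT1A and CRT2 (CRT1b in RefSeq), the calnexin CNX1, the J-domain protein ERDJ3A, the Hsp70 chaperones BIP1, BIP2 and BIP3, SDF2 and the disulfide isomerase PDIL1-1. Of these 10 genes, 6 were listed in at least 1 of the 5 deposited tables, and BIP1, BIP3, SDF2 and PDIL1-1 were listed in none. Together the tables list 6297 genes, where 23728 to 23834 genes were tested for each table. A table lists only genes that its authors had called changed between antimycin A and mock, at q below 0.05 and a log2 fold change beyond 1 in either direction, so a gene that is not listed is not shown to be unchanged.

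The 30 libraries were made from whole seedlings, 10 days old, of wildtype Col-0 (WT), of the mutants snrk1a (allele snrk1a-2), jmj15 (jmj15-2) and crf6 (crf6-2), and of an overexpressor of SnRK1a (SnRK1aOX). SnRK1 is an energy-sensing protein kinase, JMJ15 a jumonji histone demethylase and CRF6 a cytokinin response factor. Seedlings of all lines were raised on agar with sucrose and then transferred to liquid culture. There they received antimycin A at 50 µM for 5 h or a mock treatment, with 3 libraries per group. The labels name neither the promoter of the SnRK1a transgene nor how many independent transformants the line stands for, and each mutant is 1 allele. No label ties the 3 libraries of a group to separate cultures. The p-values therefore measure how far these libraries spread, which may be technical.

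Secreted and membrane proteins fold in the endoplasmic reticulum. There BiP, an Hsp70, works with J-domain proteins and the SDF2 complex, calnexin and calreticulin hold glycoproteins through their sugars, and disulfide isomerases form cystine bridges. When unfolded proteins build up, the kinase and ribonuclease IRE1 splices BZIP60 mRNA without the spliceosome, and the protein made from the spliced form enters the nucleus and raises chaperone genes, a programme known as the unfolded protein response. The gene-level values used here do not separate spliced from unspliced BZIP60 mRNA.

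Antimycin A split the group. BZIP60 and ERDJ3A were higher wherever they were listed, and CRT1A, CRT2, CNX1 and BIP2 were lower wherever they were listed. In WT 4 of the 10 genes were listed, 2 higher and 2 lower, where the authors' deposited table listed 14.7% of all tested genes, 5.83% higher and 8.84% lower. In snrk1a 6 were listed, 2 higher and 4 lower (background 17.3%, with 7.17% higher and 10.1% lower), and in crf6 also 6, again 2 higher and 4 lower (background 14.7%, with 6.97% higher and 7.71% lower). In jmj15 2 were listed, both higher (background 12.7%, with 6.63% higher and 6.04% lower), and in SnRK1aOX 4, 1 higher and 3 lower (background 9.22%, with 5.55% higher and 3.67% lower). These are small numbers of genes that share libraries, and the group was assembled with earlier results of these data known.

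A change is given below as the mean log2(value + 1) of the treated libraries less that of the mock ones, with its standard error from a limma fit over all genes of a table (n = 3 libraries per group), and a level is a read count after the authors' adjustment for library size, done separately for each table. The 22 changes, 9 higher and 13 lower, ran from 1.04 to 1.60 for the higher and from -1.06 to -1.42 for the lower genes, and each had a Benjamini-Hochberg adjusted p under 0.05 in limma, the largest being 0.0204. The listed genes had been selected on the same contrast, so this adds no independent support. Of all listed genes, 76.2% passed the same limma threshold for WT, 82.4% for snrk1a, 72.8% for jmj15, 72.7% for crf6 and 66.9% for SnRK1aOX. Treated and mock libraries did not overlap for any of the 22, nor for 95% of all listed genes for WT, 96.4% for snrk1a, 95.7% for jmj15, 93% for crf6 and 95.1% for SnRK1aOX.

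**Figure D1:**
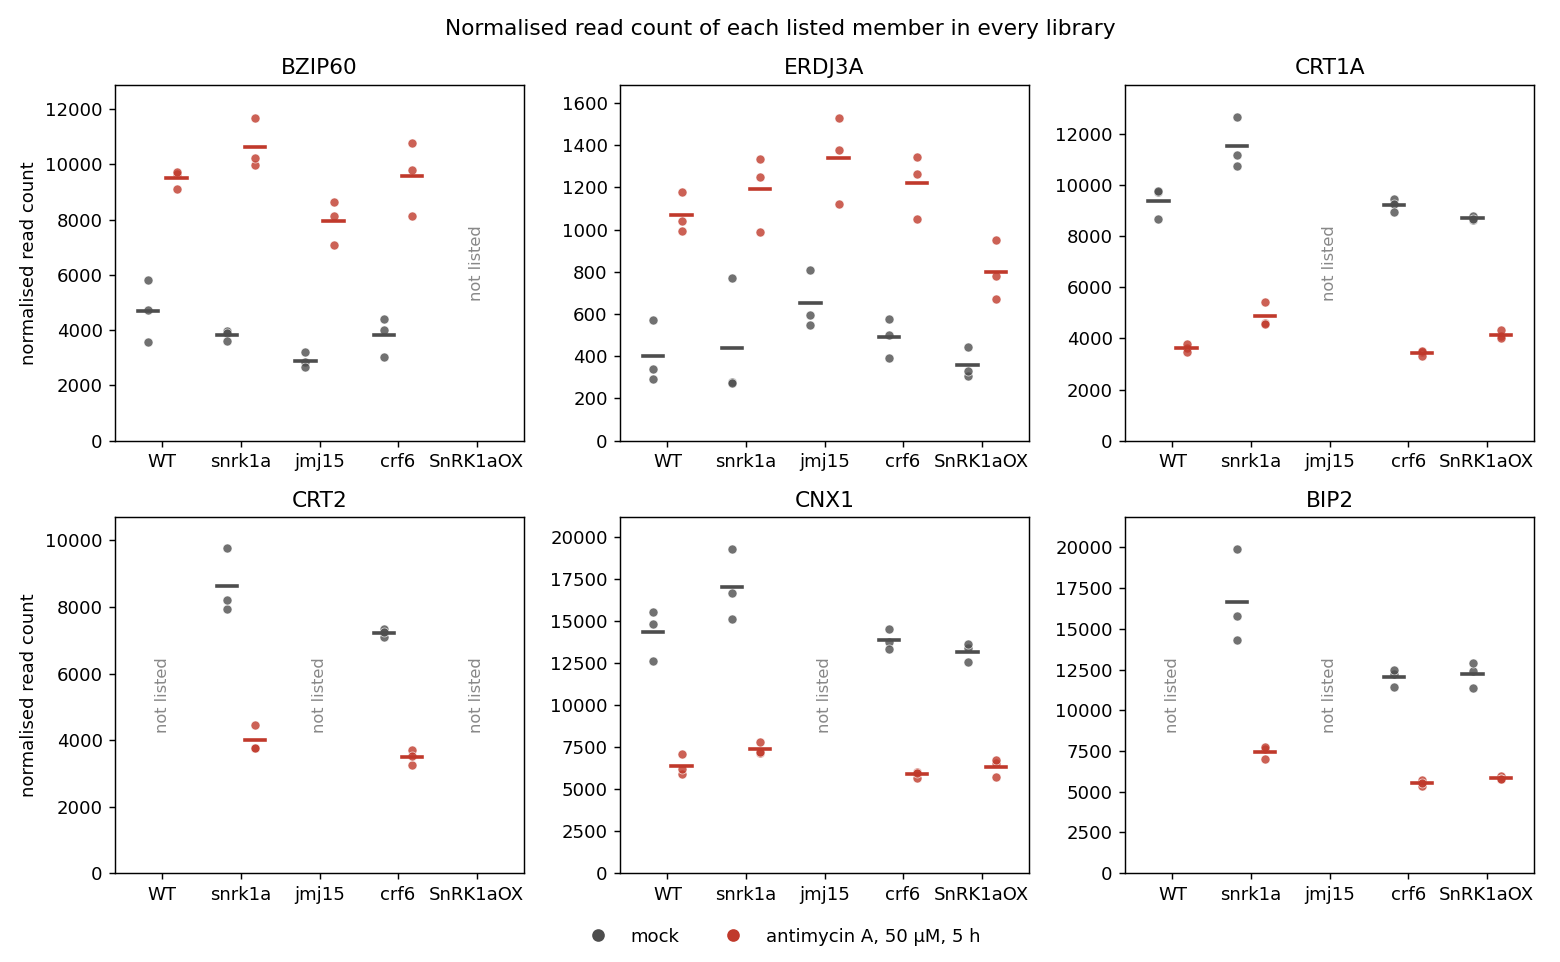
Normalised read count (vertical axis, linear, from 0) of the 6 listed genes in every library, by line, with mock in grey and antimycin A in red; points are libraries and short lines are means of 3. BZIP60 and ERDJ3A rise and the other 4 genes fall, with no overlap of treated and mock libraries in any line where a gene is listed.

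BZIP60 (AT1G42990) is the regulator of the group, a bZIP transcription factor whose unspliced mRNA encodes a form held at the endoplasmic reticulum membrane. It lies on chromosome 1 from 16135723 to 16137463, minus strand, with 2 exons (RefSeq, build TAIR10.1). In WT its mock libraries stood at 5799, 4728 and 3568 and its antimycin A libraries at 9655, 9109 and 9726. The treated values lay close together while the mock values were spread, and the rise of 1.04 ± 0.18 (limma adjusted p = 0.00470) is the smallest of its 4 rises. The authors' deposited table gives it a log2 fold change of 1.02 in WT, just inside the limit of 1 for being listed.

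In snrk1a BZIP60 rose from 3953, 3904 and 3596 to 9971, 10224 and 11696, a change of 1.47 ± 0.15 (limma adjusted p = 0.000324). In jmj15 it rose from 2831, 3207 and 2653 to 8124, 8655 and 7068, a change of 1.46 ± 0.13 (limma adjusted p = 0.000208). In crf6 it rose from 3027, 4004 and 4405 to 8125, 10787 and 9781, a change of 1.33 ± 0.17 (limma adjusted p = 0.00139). The fold of treated over mock was thus 2.06 (WT), 2.78 (snrk1a), 2.74 (jmj15) and 2.52 (crf6). BZIP60 was not listed in SnRK1aOX, so that line has no value for it here. In the p and q of the authors' deposited tables BZIP60 stood at about rank 177 of 23834 tested genes in snrk1a and rank 1603 of 23742 in WT.

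ERDJ3A (AT3G08970, also named TMS1) encodes a J-domain protein of the endoplasmic reticulum, a partner of BiP that is known for the heat tolerance of pollen tubes. It lies on chromosome 3 from 2737297 to 2740549, plus strand, with 7 exons, and was the sole gene of the group listed in all 5 tables. In WT it rose from 572, 291 and 339 to 1040, 995 and 1179, a change of 1.48 ± 0.25 (limma adjusted p = 0.00372). In crf6 it rose from 394, 574 and 499 to 1053, 1345 and 1265, a change of 1.33 ± 0.19 (limma adjusted p = 0.00202). Every treated library of these 2 lines lay above every mock library.

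In jmj15 ERDJ3A rose from 547, 810 and 597 to 1376, 1528 and 1120, a change of 1.05 ± 0.19 (limma adjusted p = 0.00838), which without antimycin A replicate 1 missed the threshold (adjusted p = 0.0585). In SnRK1aOX it rose from 444, 307 and 331 to 950, 672 and 781, a change of 1.15 ± 0.22 (limma adjusted p = 0.0204). That call ended without any 1 of antimycin A replicates 1, 2 and 3 and mock replicates 2 and 3, with limma adjusted p from 0.0670 to 0.0837.

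In snrk1a 1 mock library stood apart for ERDJ3A, which measured 769, 279 and 274 in mock replicates 1, 2 and 3 and 1249, 987 and 1337 under antimycin A. The change was 1.60 ± 0.37 (limma adjusted p = 0.0142). It was 2.09 without mock replicate 1 and kept its call there, but lost it without mock replicate 2 or 3 or antimycin A replicate 1 or 3 (limma adjusted p from 0.0668 to 0.0911). Mock replicate 1 of snrk1a was the highest mock library for BZIP60 and for all 5 other listed genes of the group as well, while over all listed genes of the table it was the highest for 41.4% and its median deviation from the other mock libraries was 0.06 (log2). Other libraries also lay at an end of their group for every listed gene of the group. Antimycin A replicate 3 of WT was the highest for all 4, and mock replicate 2 of SnRK1aOX the lowest for all 4. In jmj15, with 2 listed, mock replicate 2 and antimycin A replicate 2 were the highest and antimycin A replicate 3 the lowest for both. What sets such libraries apart was not tested.

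**Figure D2:**
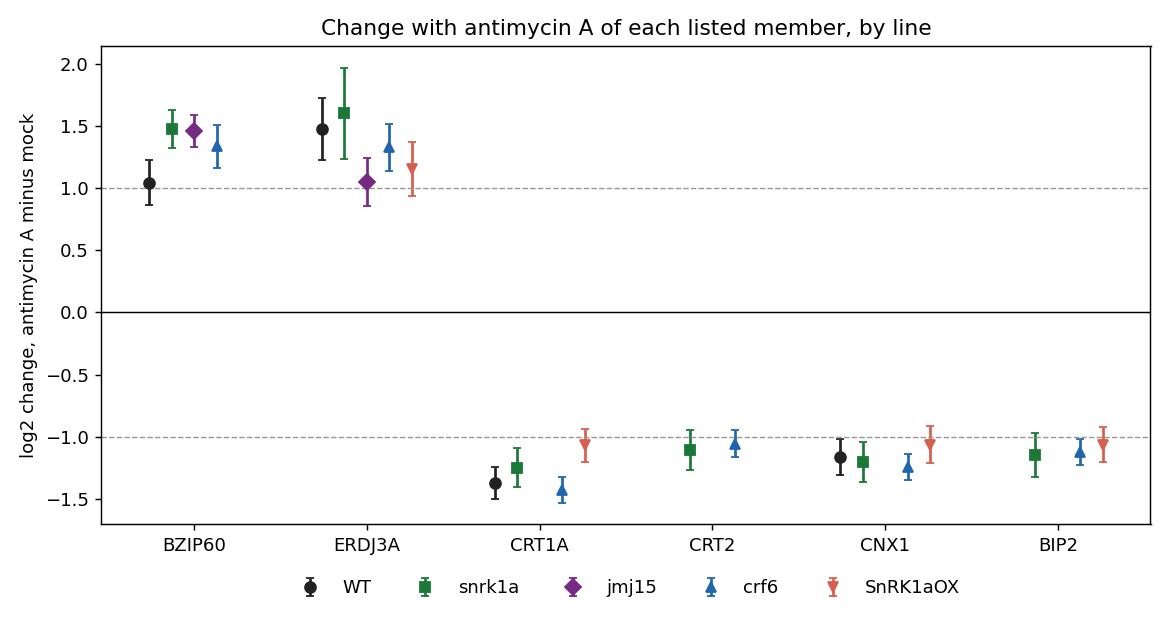
Change with antimycin A (vertical axis, change in log2(value + 1), treated less mock) of the 6 listed genes; symbols mark the lines, bars are ± 1 standard error of the limma fit (3 libraries per group), and dashed lines mark the authors' listing limit of 1 in either direction. All rises of BZIP60 and ERDJ3A lie between 1.04 and 1.60, and all falls of the 4 chaperones between -1.06 and -1.42.

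The lectin chaperones fell. CRT1A (AT1G56340, chromosome 1, 21089565 to 21092709, minus strand, 12 exons) encodes a calreticulin, a soluble chaperone that binds calcium and glycoproteins. In WT it fell from 9717, 9777 and 8665 to 3642, 3448 and 3798, a change of -1.37 ± 0.13 (limma adjusted p = 0.000278). In snrk1a it fell from 12658, 10752 and 11184 to 4590, 5441 and 4550, a change of -1.25 ± 0.16 (limma adjusted p = 0.000662). These 2 lines show mock levels 2.58 and 2.37 times the treated ones.

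In crf6 CRT1A fell from 9444, 9243 and 8933 to 3471, 3497 and 3321, a change of -1.42 ± 0.10 (limma adjusted p = 0.000147), the largest fall in the group. In SnRK1aOX it fell from 8788, 8626 and 8667 to 4087, 4007 and 4341, a change of -1.07 ± 0.13 (limma adjusted p = 0.00463). The mock level in crf6 was 2.68 times the treated one, and in both lines all treated libraries lay close together, far below the mock ones. In the authors' deposited tables it stood near the top of the tested genes, at about rank 190 of 23742 in WT and 202 of 23783 in crf6.

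CNX1 (AT5G61790, chromosome 5, 24827063 to 24829900, minus strand, 6 exons) encodes calnexin, the membrane-bound counterpart of calreticulin. In WT it fell from 14838, 15522 and 12615 to 5886, 6211 and 7085, a change of -1.16 ± 0.15 (limma adjusted p = 0.000860). In snrk1a it fell from 19286, 15150 and 16686 to 7148, 7822 and 7189, a change of -1.20 ± 0.16 (limma adjusted p = 0.000844). In both lines the highest treated library lay well below the lowest mock library. In counts the mock libraries differed more among themselves than the treated ones. In WT the SD was 1520 at a mock mean of 14325 and 620 at a treated mean of 6394, so relative to the mean these spreads were close. In snrk1a it was 2091 at 17041 and 378 at 7386.

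In crf6 CNX1 fell from 13772, 14537 and 13346 to 5644, 6009 and 5974, a change of -1.24 ± 0.11 (limma adjusted p = 0.000258). In SnRK1aOX it fell from 13389, 12551 and 13630 to 5697, 6532 and 6748, a change of -1.06 ± 0.15 (limma adjusted p = 0.00630). CNX1 and CRT1A were listed in the same 4 tables, and neither was listed in jmj15.

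CRT2 (AT1G09210, chromosome 1, 2972638 to 2977002, minus strand, 13 exons), the other calreticulin of the group, was listed in 2 tables. In snrk1a it fell from 9760, 7938 and 8207 to 3775, 4449 and 3771, a change of -1.11 ± 0.16 (limma adjusted p = 0.00122). In crf6 it fell from 7099, 7333 and 7250 to 3696, 3239 and 3513, a change of -1.06 ± 0.11 (limma adjusted p = 0.000522). The coding sequences of CRT1A and CRT2 are 83.6% identical. Of the stretches of 50 bases in the CRT1A coding sequence, 0.244% recur unaltered in that of CRT2, so exact matches of this length are rare between them. Sharing of reads that align with mismatches was not examined.

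BIP2 (AT5G42020, chromosome 5, 16807342 to 16810693, minus strand, 6 exons) encodes a luminal Hsp70, the central chaperone of the compartment. In snrk1a it fell from 19875, 14305 and 15794 to 6996, 7617 and 7770, a change of -1.15 ± 0.17 (limma adjusted p = 0.00148). In crf6 it fell from 12245, 12466 and 11441 to 5715, 5341 and 5554, a change of -1.12 ± 0.11 (limma adjusted p = 0.000365). In SnRK1aOX it fell from 12385, 11390 and 12901 to 5956, 5782 and 5790, a change of -1.06 ± 0.14 (limma adjusted p = 0.00533).

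BIP2 has a near copy, BIP1 (AT5G28540, chromosome 5, 10540123 to 10543558, minus strand), which no table lists. Their coding sequences are 95.8% identical, the longest stretch without a difference spans 323 bases, and 32% of the stretches of 50 bases in BIP1 recur unaltered in BIP2. The sources used here give neither the read length nor the handling of reads that fit both genes, so BIP2 values may hold BIP1 reads and the pair cannot be told apart with certainty. BIP3 (AT1G09080, chromosome 1), a form known for strong induction by unfolded proteins, is more distant, at 70.1% identity to BIP2 and with 0 shared stretches of 50 bases. The pair of stretches below covers coding bases 56 to 115 of BIP1 (chr5:10542990-10543049, minus strand) and 71 to 130 of BIP2 (chr5:16810074-16810133, minus strand). Among 60-base coding stretches within 1 exon that align without gaps, it holds the most mismatches. It is shown for how few mismatches separate the 2 coding sequences over such a length. The alignment also has 18 gap bases, which such stretches leave out, and untranslated parts were not compared. Capitals mark the 5 bases that differ (RefSeq, build TAIR10.1).
BIP1: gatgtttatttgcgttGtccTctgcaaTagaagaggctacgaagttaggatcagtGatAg
BIP2: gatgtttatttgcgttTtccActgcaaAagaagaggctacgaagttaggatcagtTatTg

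Counts of a gene grow with its length, so levels of different genes were compared per kb of exon (longest RefSeq transcript). In mock WT the order of the normalised count per kb was CNX1 at 6565 ± 697, CRT1A at 5071 ± 338, BZIP60 at 3817 ± 907 and ERDJ3A at 189 ± 70.8 (mean ± SD, n = 3). The ranges of CRT1A (4681 to 5282) and BZIP60 (2899 to 4711) met, and the other neighbours did not. Under antimycin A the order in WT was BZIP60 at 7715 ± 274, CNX1 at 2930 ± 284, CRT1A at 1961 ± 94.7 and ERDJ3A at 505 ± 45.3, with no overlap of neighbours. BZIP60 passed from below both lectin chaperones to above them, and ERDJ3A stayed the lowest of the listed genes in both treatments.

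A ratio of 2 genes within a library does not depend on how that library was scaled, so ratios can be set side by side across tables. The ratio of BZIP60 to CNX1 was 0.283 to 0.391 in mock WT, 0.205 to 0.258 in mock snrk1a and 0.220 to 0.330 in mock crf6. Under antimycin A it was 1.37 to 1.64 in WT, 1.31 to 1.63 in snrk1a and 1.44 to 1.80 in crf6. Treated and mock libraries did not overlap in any of these 3 lines, and the lines overlapped with each other under treatment. A value exists only where BZIP60 was listed as higher and CNX1 as lower. The listing thus sets the direction of the shift, and the separation adds no independent support. With 3 libraries against 3, an exact permutation test of a single ratio cannot give a p below 0.10, so no p is given for ratios.

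Among the falling chaperones, the ratio of CRT1A to CNX1 was close to the same in the mock libraries of the 4 lines that list both, at 0.657 ± 0.0286 in mock WT, 0.679 ± 0.0277 in snrk1a, 0.664 ± 0.0255 in crf6 and 0.660 ± 0.0259 in SnRK1aOX (mean ± SD, n = 3). Under antimycin A it was 0.570 ± 0.0433 in WT and 0.584 ± 0.0296 in crf6, with every treated library below every mock library, and 0.657 ± 0.0338 in snrk1a and 0.658 ± 0.0535 in SnRK1aOX, with overlap. The ratio of BIP2 to CNX1 was 0.944 to 1.03 in mock and 0.974 to 1.08 in treated snrk1a libraries, 0.857 to 0.889 against 0.889 to 1.01 in crf6, and 0.908 to 0.947 against 0.858 to 1.05 in SnRK1aOX, with overlap in snrk1a and SnRK1aOX and the groups meeting at their edges in crf6. The mock ranges of this ratio in snrk1a and crf6 did not overlap. The counts of the 2 calreticulins came closer together. The ratio of CRT2 to CRT1A was 0.734 to 0.771 in mock and 0.818 to 0.829 in treated snrk1a libraries. In crf6 it was 0.752 to 0.812 in mock and 0.926 to 1.07 in treated libraries. Neither line showed overlap, and CRT1A fell further than CRT2 in both, in snrk1a with changes of -1.25 ± 0.16 and -1.11 ± 0.16. The shift in crf6 was not particular to this pair. There BIP2 over CRT1A rose from 1.28 to 1.35 in mock to 1.53 to 1.67 in treated libraries, while it overlapped in snrk1a and SnRK1aOX. Ratios of genes outside the group were not examined, so no background stands beside these.

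The 2 rising genes stood in another proportion in jmj15. The ratio of ERDJ3A to BZIP60 was 0.193 to 0.253 in mock jmj15, against 0.0616 to 0.0986 in mock WT and 0.113 to 0.143 in mock crf6. In mock snrk1a it was 0.195, 0.0715 and 0.0762, the first being the library described above. Under antimycin A it was 0.159 to 0.177 in jmj15, above every treated library of WT (0.108 to 0.121), snrk1a (0.0966 to 0.125) and crf6 (0.125 to 0.130). The small heat shock protein HSP22 (AT4G10250), which resides in the same compartment, also stood high in the mock libraries of jmj15, at 763 ± 491 against 12.97 ± 6.49 in mock WT, levels from tables that were normalised separately. Whether that level and the ERDJ3A proportion have a common source was not tested.

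**Figure D3:**
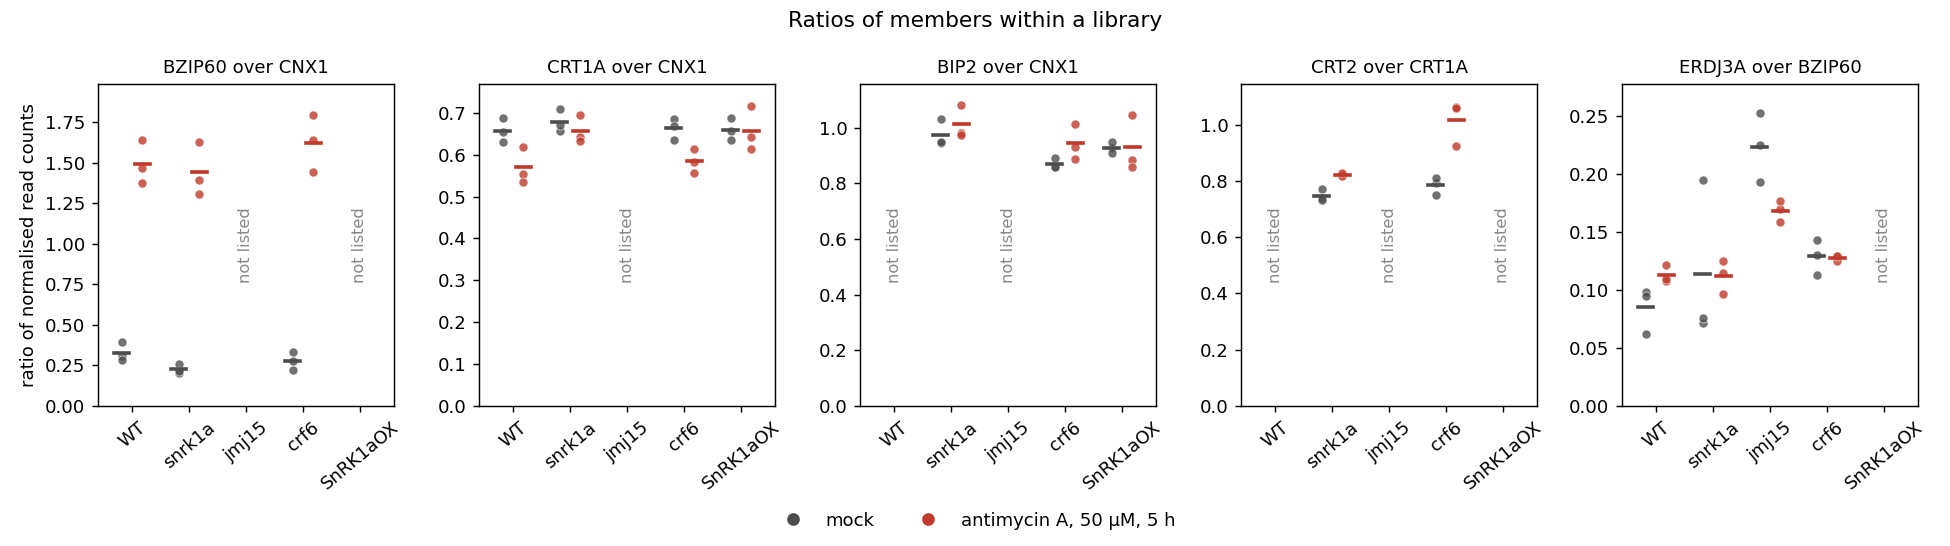
Ratio of the normalised read counts of 2 genes within each library (vertical axes, linear, from 0), by line, mock in grey and antimycin A in red; points are libraries and short lines are means of 3, and a pair with a gene that is not listed has no value. BZIP60 over CNX1 moves from under 0.40 to over 1.3 in each line shown, and CRT2 over CRT1A rises in both lines. The mean of ERDJ3A over BZIP60 is highest in jmj15 in both treatments, while mock replicate 1 of snrk1a (0.195) lies within the mock range of jmj15.

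Whether SnRK1, JMJ15 or CRF6 alters these responses was tested in limma as the change in a line less the change in WT, for genes that both tables list. Of 13 such differences for the group, 0 passed an adjusted p of 0.05 and 0 had an unadjusted p under 0.05. Among all genes listed for both snrk1a and WT, 0 of 2440 (0%) passed, and 184 had an unadjusted limma p under 0.05. The matching counts for jmj15 were 46 of 2057 (2.24%) and 293. Those for crf6 were 0 of 2440 (0%) and 110, while SnRK1aOX had 2 of 1530 (0.131%) and 148. The 4 comparisons together held 735 of 8467 differences at an unadjusted p under 0.05. Against that background, 0 of 13 does not set the group apart. Only genes past the authors' limits in both tables could enter. This leaves out BIP2 and CRT2 in every line, BZIP60 in SnRK1aOX, and CRT1A and CNX1 in jmj15. All 4 comparisons share the WT libraries.

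For BZIP60 the response was larger than in WT by 0.43 ± 0.25 in snrk1a (95% interval -0.11 to 0.97, limma adjusted p = 0.732), by 0.41 ± 0.23 in jmj15 (-0.09 to 0.91, adjusted p = 0.466) and by 0.29 ± 0.27 in crf6 (-0.28 to 0.87, adjusted p = 0.996). The intervals contain 0 and also contain differences of more than 0.80, so neither an equal nor a larger response is shown. For ERDJ3A the difference was -0.42 ± 0.34 in jmj15 (interval -1.15 to 0.30, limma adjusted p = 0.667), -0.32 ± 0.35 in SnRK1aOX (-1.09 to 0.44, adjusted p = 0.871), -0.15 ± 0.33 in crf6 (-0.87 to 0.57) and 0.12 ± 0.49 in snrk1a (-0.93 to 1.18).

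The lectin chaperones gave narrower intervals. For CRT1A the difference was 0.30 ± 0.17 in SnRK1aOX, a smaller fall than in WT (interval -0.06 to 0.66, limma adjusted p = 0.620), 0.12 ± 0.21 in snrk1a (-0.33 to 0.58) and -0.05 ± 0.15 in crf6 (-0.38 to 0.27). For CNX1 it was 0.10 ± 0.20 in SnRK1aOX (-0.33 to 0.53), -0.04 ± 0.23 in snrk1a (-0.53 to 0.45) and -0.08 ± 0.17 in crf6 (-0.45 to 0.29). All of these intervals contain 0, and for CNX1 none of the 3 reaches beyond 0.53 in either direction. A line in which CNX1 fell by less than the listing limit of 1 could not enter, and jmj15 does not list it. The intervals therefore put no bound on how much weaker the fall may be in a line that is not listed.

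**Figure D4:**
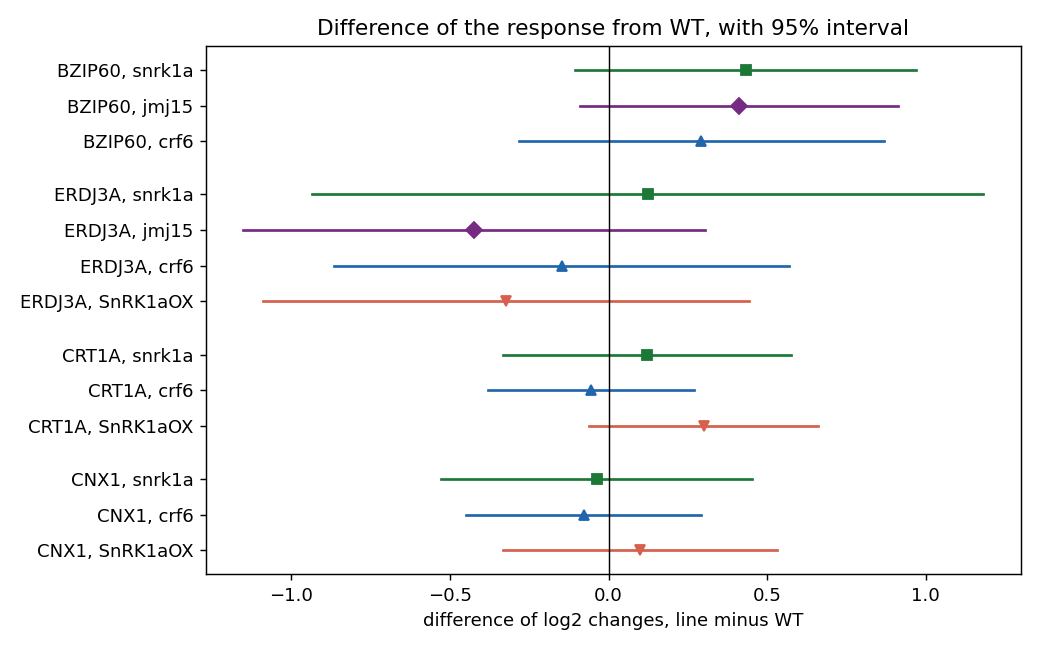
Difference between the response of a line and that of WT (horizontal axis, difference of log2 changes, line minus WT) for the genes listed in both tables; symbols are limma estimates and lines their 95% intervals (12 libraries per comparison). All 13 intervals contain 0, and those of ERDJ3A are the widest.

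A list of 50 genes for folding, quality control, translocation and degradation in the endoplasmic reticulum holds the 10 members and 40 others, of which 4 were listed in any table. Over all genes, 6297 were listed in at least 1 table, where 23728 to 23834 were tested for each table. A single table listed between 9.22% (SnRK1aOX) and 17.3% (snrk1a) of its tested genes. Absence from all 5 tables is thus what most genes show. HSP22 was listed as higher in all 5 tables, by 5.67 ± 0.48 in WT and 3.37 ± 0.35 in SnRK1aOX, and stood at 1.26 ± 0.40 in jmj15 with a limma adjusted p of 0.116. P58IPK (AT5G03160), a luminal J-domain protein, fell in snrk1a (-1.14 ± 0.18) and crf6 (-1.03 ± 0.15), and HSP90.7 (AT4G24190), the luminal Hsp90 known as SHEPHERD, fell in snrk1a (-1.06 ± 0.15). BZIP49 (AT3G56660), a relative of the membrane-bound factor BZIP28, was lower in WT at low counts, from 17.1 ± 0.838 to 3.77 ± 2.02.

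Counted over the whole list of 50, 3 were higher and 3 lower for WT (background 5.83% higher and 8.84% lower), 3 and 6 for snrk1a (7.17% and 10.1%), 3 and 0 for jmj15 (6.63% and 6.04%), 3 and 5 for crf6 (6.97% and 7.71%), and 2 and 3 for SnRK1aOX (5.55% and 3.67%). These counts differ by few genes from what such shares give over 50, and nothing about the list is read from them. All 11 genes of disulfide formation, among them PDIL1-1 and its relatives and the oxidases ERO1 and ERO2, were absent from the 5 tables. So were all 12 of degradation and translocation. Most tested genes were absent from all 5 as well, and nothing is read from these absences. Of 9 regulators, BZIP60 and BZIP49 were listed in any table, while the sensors IRE1A and IRE1B, the factors BZIP28 and BZIP17 and the NAC factors NAC062, NAC103 and NAC089 were not. The median change of the higher members, which rests on 1 or 2 genes, was 1.26 for WT beside 1.51 for all listed higher genes of that table, 1.54 beside 1.54 for snrk1a, 1.25 beside 1.70 for jmj15, 1.33 beside 1.502 for crf6 and 1.15 beside 1.57 for SnRK1aOX. That of the lower members, 2 to 4 genes, was -1.27 for WT beside -1.65 for all listed lower genes, -1.17 beside -1.68 for snrk1a, -1.18 beside -1.59 for crf6 and -1.06 beside -1.46 for SnRK1aOX.

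The falls were measured in whole seedlings, where fewer cells of a type and less RNA per cell cannot be told apart. Of 13 markers of root hairs and endodermis, 9 were listed as lower for WT (background 8.84%), 11 for snrk1a (10.1%), 8 for jmj15 (6.04%), 9 for crf6 (7.71%) and 5 for SnRK1aOX (3.67%), and 0 as higher. All listed markers of snrk1a and crf6 had a limma adjusted p under 0.05. In SnRK1aOX no marker did, the lowest being 0.0865 (CASP4). In jmj15 CASP1, CASP4, EXPA7, EXPA18 and PRP3 missed it (0.119 to 0.243). In WT EXPA7 (0.380) and EXPA18 (0.164) missed it. No chaperone of the group was listed as lower in jmj15, which does not show that the chaperones held their level there. The summed normalised count of the 9 listed in WT ranged from 2176 to 5706 in mock and from 917 to 1168 in treated libraries, and that of the 8 listed in jmj15 from 670 to 1858 and from 199 to 462. The sums cover only markers that the authors had called lower, which fixes their direction, and the WT and jmj15 sums cover different sets of genes. Of 5 markers of the green shoot (RBCS1A, LHCB1.1, LHCA1, PSAD1 and RCA) 0 were listed in any table. The part of these root transcripts in the falls of the chaperones was not tested.

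Promoters of the group were read as the 300 bases before the annotated gene start (RefSeq, build TAIR10.1) and searched on both strands. The unfolded protein response elements ERSE-I (CCAAT, then CCACG after 9 bases) and ERSE-II (ATTGG, then CCACG after 1 base) matched 0 of the 10 windows, against 0.332% and 0.0656% of 27443 windows of nuclear protein-coding genes. The heat shock element (alternating GAA and TTC, 3 in all, each 2 bases apart) also matched 0 of the 10, against 0.485%. The UPRE core TGACGTGG matched 2 of the 10, CRT1A and PDIL1-1, against 1.33%, and the shorter CCACGT, a part of that core on the other strand, matched CRT1A, ERDJ3A and PDIL1-1, against 9.13%. These are matches of letters, not bound sites.

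The last 120 bases before the starts of CRT1A, the gene with the largest fall, and ERDJ3A, the one listed as higher in every table, are shown because the same short core stands before a falling and a rising gene. Capitals mark matches, the longer ones in CRT1A being the UPRE core read on the opposite strand (chr1:21092710-21092829, minus strand, and chr3:2737177-2737296, plus strand).
CRT1A: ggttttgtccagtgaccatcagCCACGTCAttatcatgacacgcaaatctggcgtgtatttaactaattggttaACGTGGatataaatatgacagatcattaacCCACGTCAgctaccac
ERDJ3A: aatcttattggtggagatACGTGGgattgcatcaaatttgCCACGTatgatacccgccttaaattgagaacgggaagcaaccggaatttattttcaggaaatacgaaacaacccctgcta

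The 2 UPRE matches of CRT1A begin 98 and 16 bases before the gene start, and the 2 CCACGT matches of ERDJ3A begin 102 and 80 bases before it.

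Genes whose changes were most alike were found by the mean absolute difference of the log2 change over the tables that list the member. For BZIP60 (4 tables, 1573 candidates) these were SDR3 (AT2G47130) at 0.0435, AT3G45730 at 0.0482 and CSLE1 (AT1G55850) at 0.0487. For ERDJ3A (5 tables, 1107 candidates) they were GSTU19 (AT1G78380) at 0.0707, IOS1 (AT1G51800) at 0.0938 and PMT5 (AT3G18830) at 0.102. For CRT1A (4 tables, 1198 candidates) they were GH9B7 (AT1G75680) at 0.0515, AT5G41140 at 0.0622 and MYB28 (AT5G61420) at 0.0634. For CNX1 they were AT4G35880 at 0.0275, AT2G22200 at 0.0510 and SIP1 (AT5G40390) at 0.0559, and for BIP2 (3 tables, 1354 candidates) AT4G29310 at 0.0404, AT5G10020 at 0.0414 and AT5G64640 at 0.0433. No other member of the group was among the 3 nearest of these 5, and CRT2, listed in 2 tables, was not searched.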

How the data were processed

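The 30 whole-seedling RNA libraries fall into 10 groups. Columns were matched to sample titles by name, and those named kin10-2 and KIN10V17 were taken for snrk1a and SnRK1aOX because KIN10 is another name of SnRK1a. Reads were aligned with Bowtie 0.12.2 to TAIR10, per the submitters' processing notes, while the counting, scaling and testing tools are not stated there. From the values, each deposited table holds a signal that is a read count adjusted for library size by the authors, their log2 fold change, p-values and q-values, and in some tables the −log10 of the deposited q. Depth per library is unknown, because only selected genes are listed. The ratio of q to p at rank 1 implies 23728 to 23834 tested genes.

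The refit used limma 3.58.1 (R 4.3.3) on log2(value + 1) of all genes of a table, with trended empirical Bayes, two-sided, and a Benjamini-Hochberg adjustment over the implied number of tested genes. The design foresaw edgeR for raw counts, which the tables do not hold. Responses of lines were compared in limma over genes listed in both tables. The script was tested on simulated data. All 10 members, and genes of the endoplasmic reticulum lists found in at least 2 tables, were named by rule. Members and lists were chosen with earlier results of these data known. HSP90.7 and BZIP49, each in 1 table, are named beyond the rule, after their values were seen. Gene models, promoters and coding sequences are from RefSeq, build TAIR10.1, whose coordinates were not set beside any in the files.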

Additional observations from a re-analysis of the deposited data

How the results depend on the processing

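The 22 changes of members kept their direction under pseudocounts of 0.5 and 8, a mean value of at least 10, a fit without trend, an adjustment over the listed genes only and the replicate block, and all kept their side of the threshold except ERDJ3A in snrk1a without trend (limma adjusted p = 0.0623). With the replicate block the numbers of members passing were 4 (WT), 6 (snrk1a), 2 (jmj15), 6 (crf6) and 4 (SnRK1aOX), as without it, and 0 for each response difference. Deviations of same-numbered treated and mock libraries correlated at -0.315 to 0.0969 over listed genes, and 3 of 15 treated libraries correlated best with their own number. No pairing is seen in these values, which cannot show that there was none, and the labels give only the number. Leaving out 1 library at a time, the number of members passing ranged from 1 to 2 in jmj15 (1 without antimycin A replicate 1), 5 to 6 in snrk1a and 3 to 4 in SnRK1aOX, the lost call being that of ERDJ3A each time. Such fits have less power. Over those fits the response difference from WT changed sign for CNX1 in snrk1a (-0.119 to 0.0551), ERDJ3A in snrk1a (-0.164 to 0.615), ERDJ3A in crf6 (-0.435 to 0.0503), CRT1A in crf6 (-0.0914 to 0.00162) and CNX1 in crf6 (-0.139 to 0.0111), none of which passed in any fit. The planned sum of BIP1 and BIP2 was not run, because no table lists BIP1. Unknown depth and the listing limits are the main limits on genes not listed.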
